A study of Mus musculus with 8 samples.

Results

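The Slc25 genes, which encode the mitochondrial carrier proteins, were examined in lower molars of mouse embryos at E18.5 with and without an epithelial deletion of Jagged1. Every protein-coding gene whose mouse symbol is Slc25a followed by a number was taken, which gave 47 of the 43629 genes in the count tables. Of these 47 genes, 43 had enough counts to be tested. The mutant group held 4 K14Cre;Jagged1fl/fl embryos (K14J26, K14J28, K14J29 and K14J30), in which Cre recombinase is driven by the keratin 14 promoter and acts in the epithelium. The control group held 4 Jagged1fl/fl embryos without the Cre transgene (J3, J5, J6 and J7), so that both groups carried the floxed alleles, and the study calls these littermates WT. The molars of both sides were pooled within an embryo, and a whole molar holds mesenchyme, which keeps Jagged1, as well as epithelium.

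Slc25 carriers share a repeated membrane-spanning module, and most of them sit in the inner mitochondrial membrane. They exchange nucleotides, phosphate, amino acids, organic acids, fatty acid derivatives and cofactors between the cytosol and the matrix, so each carrier links a matrix pathway to the rest of the cell. Tooth-forming cells pass from proliferation to the secretion of enamel and dentin matrix around birth, and this change comes with large amounts of protein synthesis and ion transport.

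The count tables of the 8 embryos summed to 17327224 to 29792467 reads. Jag1 was at 95.2 to 104 CPM (counts scaled to 1000000 reads after TMM normalization) in the control embryos and at 34, 39, 46 and 57.1 CPM in the mutants, a log2 fold change of -1.19 (SE 0.14, edgeR quasi-likelihood test, Benjamini-Hochberg adjusted p = 0.00517). Markers of dental epithelium (4657 to 8083 CPM summed over 6 genes) and of dental mesenchyme (145 to 230 CPM over 5 genes) were present in all 8 embryos, as the tissue label has it. The embryos were not alike within their groups. The 5 ameloblast genes Amelx, Ambn, Enam, Mmp20 and Klk4 summed to 557 to 3254 CPM in the controls and to 3503, 9643, 25820 and 114369 CPM in the mutants, with K14J26 the highest, and 4 of the 5 were called higher. Of 4 odontoblast markers 3 were called higher, of 6 dental epithelium markers 1, Krt14, was called higher, and of 5 dental mesenchyme markers 4 were called lower, where 9.52% of all tested genes were higher and 6.61% lower. The 10 skeletal muscle markers summed to 412 CPM in J6 and 206 CPM in J7, against 6.15 to 19.8 CPM in the other 6 embryos. Proliferation genes summed to 453 CPM in K14J26 and to 868 to 1422 CPM elsewhere. The 5 macrophage and osteoclast markers summed to 1401 CPM in K14J28 and to 217 to 477 CPM in the other 7 embryos, and none of them was called. Apart from fits that take the enamel or muscle genes into account, the part of these differences in the results was not tested. In whole molars, fewer cells of a type and less RNA per cell cannot be told apart.

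The adenine nucleotide and phosphate carriers dominated among the genes with an Slc25a symbol. Per kilobase of exon, Slc25a5, an ADP/ATP carrier of dividing tissues, stood highest at 220 ± 8.91 CPM per kb in the controls and 230 ± 15.2 in the mutants (mean ± SD, n = 4 embryos each). It was followed by Slc25a4, the ADP/ATP carrier typical of heart and muscle, at 116 ± 4.83 and 112 ± 6.76 CPM per kb, and by Slc25a3, the phosphate carrier that feeds ATP synthase, at 80.1 ± 2.79 and 84 ± 4.47. These 3 genes made up 51.5% to 54.2% of the level per kb summed over the Slc25a genes in each embryo, and their ranges per kb did not touch each other. Slc25a17, a peroxisomal carrier of CoA and related cofactors, came next at 47.9 ± 2.55 CPM per kb in the controls, beside Slc25a11, the oxoglutarate/malate carrier, at 44.5 ± 0.966, and Slc25a39, a glutathione carrier, at 41.3 ± 2.2. These last 3 levels lie close together, and dividing by the longest transcript instead of all exon bases placed Slc25a39 before Slc25a11. The summed level of the genes with an Slc25a symbol ran from 2463 to 2560 CPM in the controls and from 2448 to 2559 CPM in the mutants. Family proteins under other symbols, such as Ucp2, are not in this sum.

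**Figure D1:**
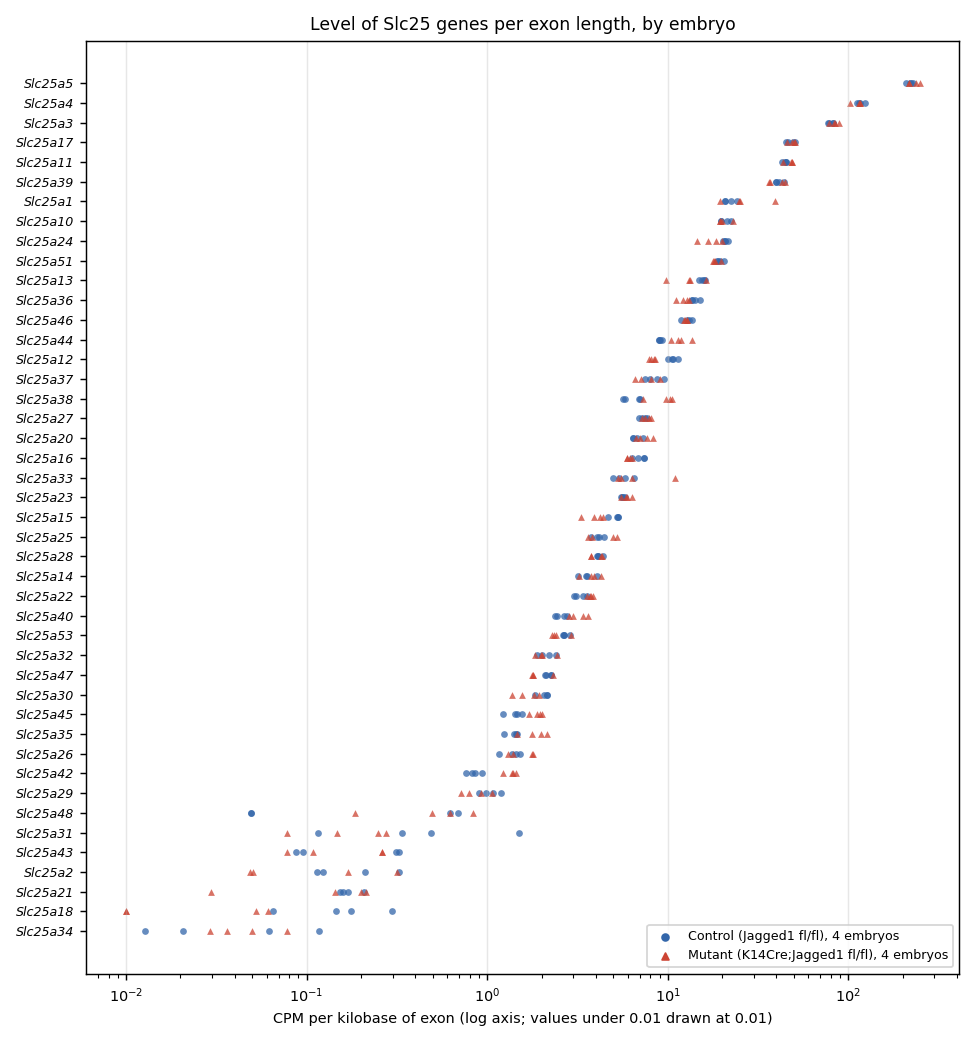
Level of the reported Slc25 genes in CPM per kilobase of exon (log axis), with blue circles for the 4 control and red triangles for the 4 mutant embryos. Slc25a5, Slc25a4 and Slc25a3 lie farthest to the right, and Slc25a41 and Slc25a54, at or near 0, are not drawn.

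None of the 5 members with the highest level per length passed the test. Slc25a5 had 363, 365, 377 and 342 CPM in controls J3, J5, J6 and J7, and 357, 358, 388 and 409 CPM in mutants K14J26, K14J28, K14J29 and K14J30. Its groups overlapped, with a log2 fold change of 0.06 (SE 0.07, adjusted p = 0.505, edgeR). Slc25a4 had 290, 269, 273 and 263 CPM in the controls and 241, 273, 274 and 269 CPM in the mutants, where K14J26 was below the other 7 embryos and the muscle-rich J6 and J7 were not raised. Its log2 fold change was -0.05 (SE 0.06, adjusted p = 0.589). Slc25a3 was at 458, 456, 436 and 427 CPM against 495, 435, 470 and 464 CPM, with a log2 fold change of 0.07 (SE 0.06, adjusted p = 0.441). For these abundant genes the standard errors are small beside those of most genes, whose median SE was 0.13. Slc25a17 had 144, 140, 132 and 129 CPM in the controls and 130, 139, 144 and 143 CPM in the mutants, a log2 fold change of 0.03 (SE 0.06, adjusted p = 0.778). Slc25a11 had 95.6, 94.6, 95.5 and 91.2 CPM against 102, 92.6, 104 and 104 CPM, a log2 fold change of 0.09 (SE 0.06, adjusted p = 0.282). Its exons overlap those of Rnf167 on the other strand over 189 bases, and whether strand was used in the counting is not given in the sources used here.

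Across the genes with an Slc25a symbol, the comparison of mutant with control molars gave 5 higher genes at an adjusted p under 0.05, among them Slc25a42, Slc25a38, Slc25a44 and Slc25a40. This was 11.6% of the 43 tested members, and 9.52% of the 17129 genes tested were higher. Slc25a12 and Slc25a15 were lower, 4.65% of the members, against 6.61% of all genes. Both shares are near the background of this comparison. With 1 embryo left out, the higher count lay between 1 and 6 and the lower count between 1 and 5. Over all genes, the same fits called 250 to 2479 higher and 170 to 1843 lower. The median log2 fold change of the members was -0.019, beside 0.006 over all genes tested, and the median absolute change was 0.19 on the log2 scale, beside 0.22. Of the 43 members, 21 had a positive log2 fold change and 38 lay within 0.5 of no change. By the cutoffs of the study's methods (unadjusted p up to 0.05, fold change from 0.5, which is read here as a log2 ratio), Slc25a42 and Slc25a38 were higher (8.33% of all genes were) and the scarce Slc25a18 and Slc25a31 were lower (5.85% of all genes were). Slc25a18 met the count filter only through controls J6 and J7 (11 and 10 counts), so the filter itself favoured its direction. All mutants lay above all controls in 6 members or 14%, among them Slc25a42, Slc25a44, Slc25a38, Slc25a40 and Slc25a45, beside 12.6% of all genes. Another 6 members, Slc25a12, Slc25a15, Slc25a18, Slc25a36, Slc25a16 and Slc25a24, had all mutants below all controls, beside 11.6% of all genes. Here too, Slc25a18 was admitted to the test only by the controls, where it is higher.

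**Figure D2:**
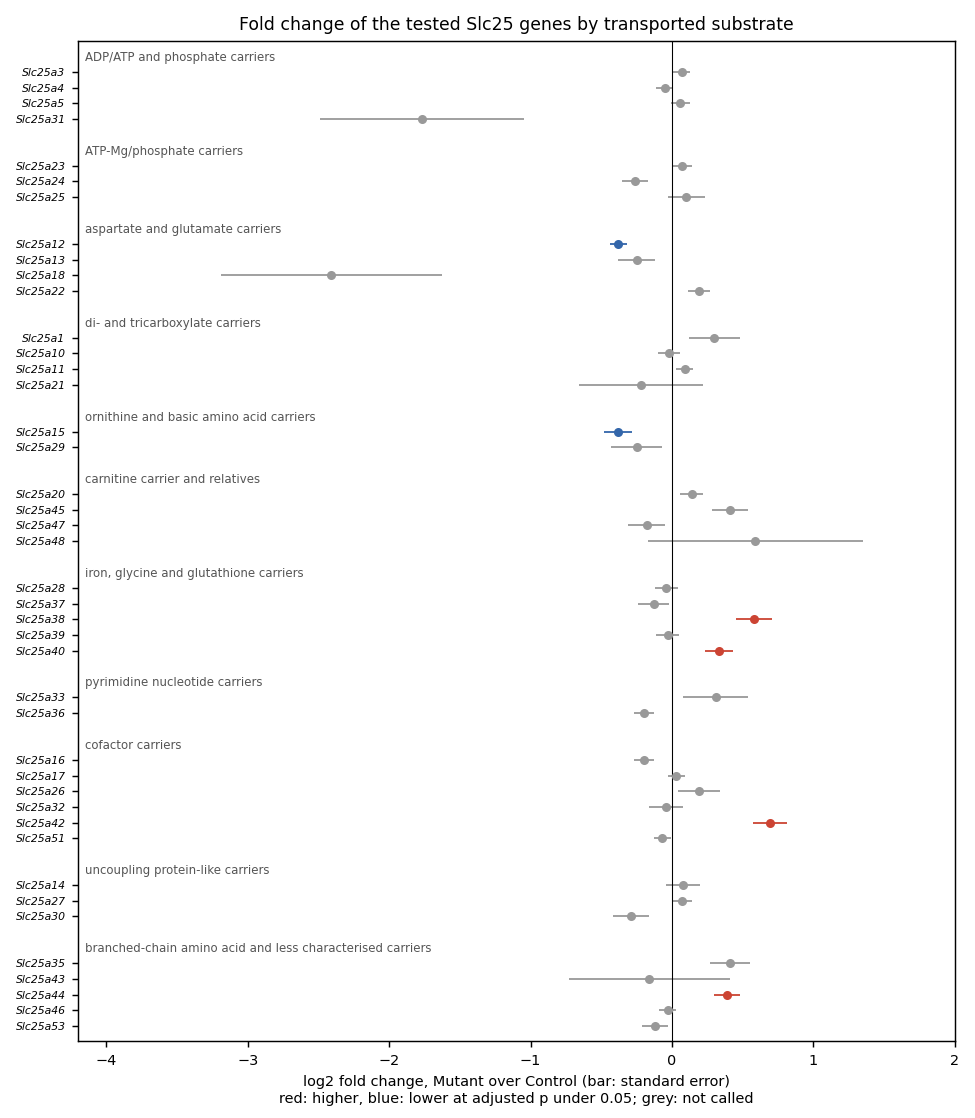
Log2 fold change (mutant over control) of 42 tested Slc25 genes, grouped by transported substrate, with the standard error as a bar. The 4 red genes were higher and the 2 blue genes lower at an adjusted p under 0.05, and the wide bars belong to members with few counts.

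Cofactor carriers bring into the matrix the small molecules that its enzymes need, and Slc25a42 had the largest called rise among the genes with an Slc25a symbol. Slc25a42, which brings CoA into the matrix, had 4.93, 4.58, 5.14 and 5.61 CPM in controls J3, J5, J6 and J7 and 8.27, 7.29, 8.7 and 8.38 CPM in mutants K14J26, K14J28, K14J29 and K14J30. Its lowest mutant lay well above its highest control, with a log2 fold change of 0.69 (SE 0.12, adjusted p = 0.011, edgeR quasi-likelihood test). This call held when any 1 embryo was left out, with adjusted p from 0.00655 to 0.045. Several other cofactor carriers did not pass. Slc25a16, a carrier related to CoA transport, lay lower in all mutants than in all controls (log2 fold change -0.20, SE 0.07, adjusted p = 0.077). Its adjusted p in edgeR was 0.0425 with upper-quartile factors and 0.0484 with library size scaling. Slc25a26 for S-adenosylmethionine, Slc25a32 for folate and FAD, and Slc25a51 for NAD had log2 fold changes of 0.19, -0.04 and -0.07, with adjusted p from 0.38 to 0.856.

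Among the 5 carriers of iron, glycine and glutathione, 2 rose and the other 3 did not pass, where 9.52% of all tested genes were higher, and the median log2 fold change of the 5 was -0.03. Slc25a38, which imports the glycine used for heme synthesis, had 15.5, 19.1, 19.3 and 15.9 CPM in the controls and 29, 20.1, 28.2 and 26.9 CPM in the mutants. K14J28 stood close to the controls and the other 3 mutants well above them, giving a log2 fold change of 0.58 (SE 0.13, adjusted p = 0.024). The adjusted p was 0.0713 without J3, 0.0535 without J5, 0.0786 without J7 and 0.0747 without K14J29, at log2 fold changes of 0.52 to 0.61. Slc25a40, a glutathione carrier, had 20.5, 22.4, 23.1 and 19.9 CPM against 30.3, 24.9, 28.6 and 23.9 CPM. Its groups were separate but nearly met, with a log2 fold change of 0.33 (SE 0.10, adjusted p = 0.0486). This is the weakest of the 7 calls: the adjusted p lay between 0.0658 and 0.13 without any one of J3, J5, J6, J7, K14J26 and K14J29. It was also lost with RLE factors (0.0507), upper-quartile factors (0.0614), library size scaling (0.124) and no filter on low counts (0.0615). Slc25a39, the related and more abundant glutathione carrier, had 122, 114, 109 and 109 CPM in the controls and 119, 100, 102 and 123 CPM in the mutants (log2 fold change -0.03, SE 0.08, adjusted p = 0.797). The iron importers mitoferrin, Slc25a37 and Slc25a28, did not pass either. Slc25a37, the form that is most abundant in red blood cell precursors, had 45, 57.1, 47.9 and 52.2 CPM against 39.5, 54.2, 42.7 and 48.6 CPM (log2 fold change -0.13, SE 0.11, adjusted p = 0.446). Slc25a28 had 15.3, 15.3, 15.2 and 16.4 CPM against 16.3, 14.1, 14.1 and 16 CPM (log2 fold change -0.04, SE 0.08, adjusted p = 0.76). The 7 tested red blood cell markers summed to 685 to 1673 CPM, and none of them was called.

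Slc25a44, which carries branched-chain amino acids, had 33.2, 31.8, 32.4 and 31.9 CPM in controls J3, J5, J6 and J7 and 49, 37.3, 42.5 and 40.7 CPM in mutants K14J26, K14J28, K14J29 and K14J30. The controls lay within 2 CPM of each other and every mutant stood above them, with K14J26 the highest, giving a log2 fold change of 0.39 (SE 0.09, adjusted p = 0.0211, edgeR). Without J3, J5, J7 or K14J29 the adjusted p was 0.0561, 0.0601, 0.0663 and 0.0659, at log2 fold changes of 0.37 to 0.40. Of the carriers listed with it, Slc25a35 had 5.15, 4.58, 5.29 and 5.4 CPM against 7.93, 5.39, 6.48 and 7.33 CPM (log2 fold change 0.41, SE 0.14, adjusted p = 0.0814, and 0.0251 without K14J28), and 31.3% of its exon bases overlap those of Rangrf. Slc25a46, an outer-membrane protein of mitochondrial shape, and Slc25a53 and Slc25a43, whose substrates are less certain, had log2 fold changes of -0.03, -0.12 and -0.16 and did not pass.

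The aspartate/glutamate carriers export aspartate from mitochondria as a step of the malate-aspartate shuttle, which moves reducing equivalents into the matrix. Slc25a12, the form called aralar, had 77.8, 83.5, 73.4 and 78.2 CPM in the controls and 57.5, 61.4, 62.1 and 59.2 CPM in the mutants. All mutants lay below all controls, and Slc25a12 fell by 0.38 on the log2 scale (SE 0.06, adjusted p = 0.01, edgeR). The call held with any 1 embryo left out, with adjusted p from 0.00649 to 0.0388. A stretch of 247 bases of its transcripts is 99.6% identical to a transcript of Adpgk, a gene at 46.3 CPM. Slc25a13, the paralog called citrin, had 61.2, 60, 56.6 and 58.6 CPM against 37, 62.2, 49.6 and 50.1 CPM. K14J26 was low and K14J28 was the highest of all 8 embryos, so that the groups overlapped (log2 fold change -0.25, SE 0.13, adjusted p = 0.213), and without K14J28 the adjusted p was 0.0342. The glutamate carriers split by level. Slc25a22 had 21.5, 18.1, 20.4 and 18.6 CPM against 23.2, 21.5, 22.2 and 22.6 CPM (log2 fold change 0.19, SE 0.08, adjusted p = 0.128), while Slc25a18 had only 5, 3, 11 and 10 counts against 0, 3, 0 and 3 counts (log2 fold change -2.41, SE 0.78, adjusted p = 0.0637). With so few counts the size of the Slc25a18 change is uncertain, and the gene met the count filter only through controls J6 and J7. Of the 11 enzymes of the malate-aspartate and citrate shuttles, only glutamate dehydrogenase, Glud1, was called, lower (log2 fold change -0.21, SE 0.06, adjusted p = 0.0363), where 6.61% of all tested genes were lower.

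Slc25a15, the ornithine carrier that serves the urea cycle and the synthesis of polyamines and proline, had 29.8, 26.3, 29.6 and 29.9 CPM in the controls and 18.7, 24.5, 21.9 and 23.7 CPM in the mutants. The mutants lay below the controls, with K14J26 the lowest, and Slc25a15 fell by 0.38 on the log2 scale (SE 0.10, adjusted p = 0.0316, edgeR). The adjusted p was 0.084 without J3, 0.0556 without J5, 0.0746 without J6, 0.0898 without J7 and 0.0872 without K14J29, and 0.0602 with library size scaling. Slc25a29, for basic amino acids, was at 1.86 to 3.11 CPM over both groups and did not pass (log2 fold change -0.25, SE 0.18, adjusted p = 0.357), and Slc25a2, its ornithine-carrying relative, had 2 to 9 counts and was not tested.

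**Figure D3:**
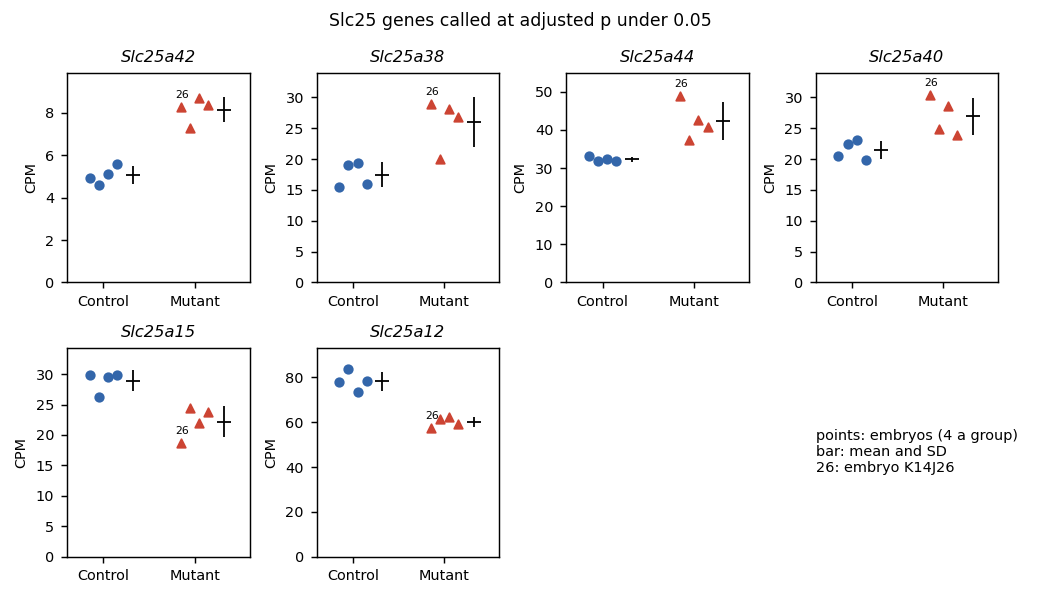
CPM of 6 called Slc25 genes in each embryo, with circles for controls, triangles for mutants, and a bar for the mean and SD of 4 embryos. No gene shows overlap between the groups, and K14J26, marked 26, is the highest embryo for Slc25a38, Slc25a44 and Slc25a40 and the lowest for Slc25a15 and Slc25a12.

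The enamel genes moved with the same groups. A score made from the 5 ameloblast genes, their mean log2 CPM, ran from 4.733 to 6.874 in the controls and from 6.937 to 11.78 in the mutants, so it did not overlap. With this score as a covariate in the edgeR fit, none of the 7 genes passed, although the same was true of most genes, with 186 higher and 112 lower in place of 1631 and 1133. The genes differed in how far their fold change moved. Slc25a42 had a log2 fold change of 0.62 and Slc25a12 of -0.33 in that fit, close to their values without it. Slc25a38 came to 0.20, Slc25a44 to 0.17, Slc25a40 to 0.06 and Slc25a15 to -0.14. Because the score did not overlap between the groups, this fit separates group and score poorly. No conclusion is drawn from which genes moved. With the skeletal muscle score as a covariate, or without the controls J6 and J7, no member passed, while the 7 log2 fold changes kept their signs and moved by at most 0.10. Over all genes, the fit with the muscle score called only 40 higher and 39 lower, and the fit without J6 and J7 only 3 higher and 4 lower.

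**Figure D4:**
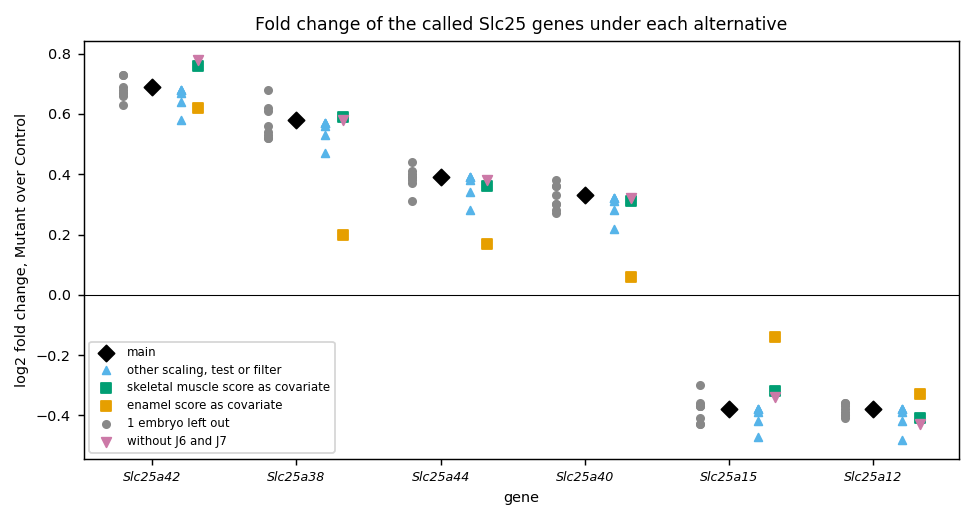
Log2 fold change (mutant over control) of 6 called Slc25 genes in the reported fit (black diamonds) and under each alternative. Every value keeps its sign, and the orange squares of the fit with the enamel score lie nearest to 0 for Slc25a38, Slc25a44, Slc25a40, Slc25a15 and Slc25a12.

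The sequence next to the start site is shown for the called genes that the RefSeq promoter table of GRCm38 holds and whose window meets no annotated exon, because the genes were called in different directions. Each window has 150 bases, is read 5′ to 3′ on the gene's strand and ends before the most upstream annotated start. Capitals mark the CCAAT box, searched as CCAAT on both strands, so that ATTGG is the same motif on the other strand. Slc25a42 lies on the minus strand (window chr8:70212306-70212455), Slc25a38 on the plus strand (chr9:120110224-120110373) and Slc25a12 on the minus strand (chr2:71367756-71367905).
Slc25a42: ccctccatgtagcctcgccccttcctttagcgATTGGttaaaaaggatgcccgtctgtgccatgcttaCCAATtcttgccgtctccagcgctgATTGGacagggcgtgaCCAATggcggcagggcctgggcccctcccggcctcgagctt
Slc25a38: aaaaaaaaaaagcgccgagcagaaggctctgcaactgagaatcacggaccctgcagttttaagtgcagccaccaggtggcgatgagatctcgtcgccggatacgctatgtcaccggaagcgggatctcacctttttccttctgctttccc
Slc25a12: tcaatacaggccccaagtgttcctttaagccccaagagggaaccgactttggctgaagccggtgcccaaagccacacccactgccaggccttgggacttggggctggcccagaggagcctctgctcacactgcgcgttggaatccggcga
The Slc25a42 window held 4 CCAAT matches, which begin 118, 82, 57 and 41 bases before its 3′ end. Of the 11434 tested protein-coding genes with an entry, 1.5% had 4 or more CCAAT matches in the 250 bases before the start, where Slc25a42 had 5. The other windows, of Slc25a38, which rose, and Slc25a12, which fell, held none of the 9 motifs searched. The search took in the CCAAT box named above, NRF1 by its usual motif, GABPA as CCGGAAGT, CRE as TGACGTCA and ERR as TCAAGGTCA. It also took in RBPJ, for which the letters were GTGGGAA. For the E-box the letters searched were CACGTG. For the GC box, which binds Sp family factors, they were GGGCGG. For the TATA box near the start of transcription they were TATAAA. Both strands were read for each motif, and letters of different motifs may overlap. In the 250 bases of the 36 members with an entry, the GC box occurred in 25 (69.4%, beside 62% of the tested protein-coding genes), CCAAT in 18 (50%, beside 39.9%) and the E-box in 7 (19.4%, beside 9.53%). The 36 members include Slc25a34, which was not tested and holds both a GC box and CCAAT, while the genes beside them were all tested. RBPJ, the DNA-binding partner of Notch, matched in 1 member, Slc25a22 (2.78%, beside 6.53%). A match is a run of letters, and binding was not measured here.

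The carnitine carrier Slc25a20, which brings acylcarnitines to the matrix for oxidation, did not pass, at 32.9, 35.3, 31 and 31.2 CPM in the controls and 37.1, 32.3, 40.1 and 34.1 CPM in the mutants (log2 fold change 0.14, SE 0.08, adjusted p = 0.267). Of 10 genes listed for the carnitine shuttle and fatty acid oxidation, 4 rose and none fell, where 9.52% of all tested genes were higher and 6.61% lower. The median log2 fold change of the 10 was 0.25, beside 0.006 over all genes. Cpt1a, which makes acylcarnitine at the outer membrane, had 36.4, 46.7, 37 and 43.1 CPM in the controls and 69.1, 57.2, 67 and 50.7 CPM in the mutants (log2 fold change 0.58, SE 0.12, adjusted p = 0.0182). Its paralog Cpt1c, Cpt2 on the matrix side and the acyl-CoA dehydrogenase Acadvl rose by 0.64, 0.60 and 0.37 on the log2 scale (adjusted p = 0.00682, 0.0227 and 0.0176). Slc25a45, a relative of the carnitine carrier, had 3.93, 4.33, 4.05 and 3.38 CPM against 4.71, 5.52, 5.2 and 5.39 CPM, with separate groups and an adjusted p of 0.0583 (log2 fold change 0.41, SE 0.13). Slc25a47 and Slc25a48 had log2 fold changes of -0.18 and 0.59 and did not pass. Slc25a48 varied within the groups, with 3, 4, 45 and 62 counts in the controls and 13, 84, 61 and 43 counts in the mutants.

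The di- and tricarboxylate carriers gave no call among 4 genes. Slc25a1, which exports citrate for lipid synthesis, had 44.7, 48.6, 52 and 44.7 CPM in the controls and 84.7, 42.2, 53.5 and 54.5 CPM in the mutants. K14J26 stood far above the other 7 embryos, and the log2 fold change of 0.30 (SE 0.18, adjusted p = 0.267) was 0.08 without it. Slc25a10, the dicarboxylate carrier, had a log2 fold change of -0.02 (SE 0.08, adjusted p = 0.883). Slc25a21, which carries oxoadipate, was at 0.775, 0.742, 0.83 and 1.01 CPM in the controls and at 0.144, 0.699, 1.04 and 0.97 CPM in the mutants, low in K14J26 only, and its exons overlap those of Pax9 over 189 bases on the other strand. The uncoupling protein-like carriers Slc25a14, Slc25a27 and Slc25a30 had log2 fold changes of 0.08, 0.07 and -0.29 and did not pass. Slc25a30 was at 9.8, 8.41, 9.39 and 9.83 CPM against 6.3, 8.88, 8.28 and 7.1 CPM (adjusted p = 0.145), and Slc25a14 at 9.64, 8.49, 8.35 and 7.5 CPM against 7.6, 8.88, 9.22 and 10.1 CPM (adjusted p = 0.677).

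Of the carriers that exchange ATP-Mg for phosphate, which set the adenine nucleotide content of the matrix under calcium control, none was called. Slc25a24 had 70.8, 70.8, 69.7 and 73.6 CPM in the controls and 49.7, 68.3, 57.1 and 63.5 CPM in the mutants, separate groups with K14J28 nearest to the controls (log2 fold change -0.26, SE 0.09, adjusted p = 0.09, and 0.0258 without K14J28). Slc25a25 had 29.6, 31.7, 32.5 and 34.8 CPM against 41.1, 28.3, 38.9 and 30 CPM (log2 fold change 0.10, SE 0.13, adjusted p = 0.591), and Slc25a23 had a log2 fold change of 0.07 (SE 0.07, adjusted p = 0.481). The pyrimidine nucleotide carriers supply mitochondrial DNA and RNA synthesis and did not pass either. Slc25a33 had 9.41, 10.1, 12.2 and 11 CPM against 20.8, 10, 12 and 10.4 CPM, high in K14J26 only (log2 fold change 0.31, SE 0.23, adjusted p = 0.356). Slc25a36, the more abundant of the pair, had 136, 131, 131 and 145 CPM against 123, 126, 116 and 106 CPM, with all mutants below all controls (log2 fold change -0.20, SE 0.07, adjusted p = 0.0762). Its adjusted p was 0.0388 with upper-quartile factors, 0.0492 with library size scaling and 0.0377 without K14J28.

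Whether carriers of the same or a like substrate changed unequally was tested in 8 pairs by the log2 ratio of their counts within each embryo, which does not depend on the scaling between embryos. An exact two-sided permutation test over the 70 arrangements of 4 against 4 embryos cannot give a p below 0.0286, and a single pair at that p would be adjusted to 0.229 over the 8 pairs by the Benjamini-Hochberg method. No pair had an adjusted p under 0.05, which this design could hardly have given. The Slc25a18/Slc25a22 ratio was lower in all mutants than in all controls, by 2.80 log2 units (-8.79 ± 1.55 against -5.98 ± 0.79, mean ± SD, exact permutation p = 0.0286, adjusted p = 0.152). This difference rests on the few counts of Slc25a18, which met the count filter only in the controls, and no conclusion is drawn from it. Because K14J26 and K14J29 had 0 counts of Slc25a18, its size is set by the prior count, and with a prior of 5 counts the difference was -1.30. The Slc25a33/Slc25a36 and Slc25a14/Slc25a30 ratios were 0.46 and 0.38 log2 units higher in the mutants (both exact p = 0.0571, adjusted p = 0.152), with overlap in each. The glutathione carriers, of which Slc25a40 was called and Slc25a39 was not, had a log2 Slc25a39/Slc25a40 ratio of 2.57, 2.35, 2.24 and 2.45 in the controls and 1.97, 2.01, 1.84 and 2.36 in the mutants. These groups overlapped through K14J30, and the difference of -0.36 was not significant (exact p = 0.0857, adjusted p = 0.171). Likewise, the log2 Slc25a12/Slc25a13 ratio was 0.40 ± 0.06 in the controls and 0.30 ± 0.27 in the mutants (exact p = 0.514, adjusted p = 0.543), so the fall of Slc25a12 was not shown to differ from the change of Slc25a13. The Slc25a4/Slc25a5, Slc25a24/Slc25a25 and Slc25a37/Slc25a28 ratios differed by -0.12, -0.35 and -0.09 log2 units (exact p = 0.114, 0.286 and 0.543, adjusted p = 0.183, 0.381 and 0.543).

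**Figure D5:**
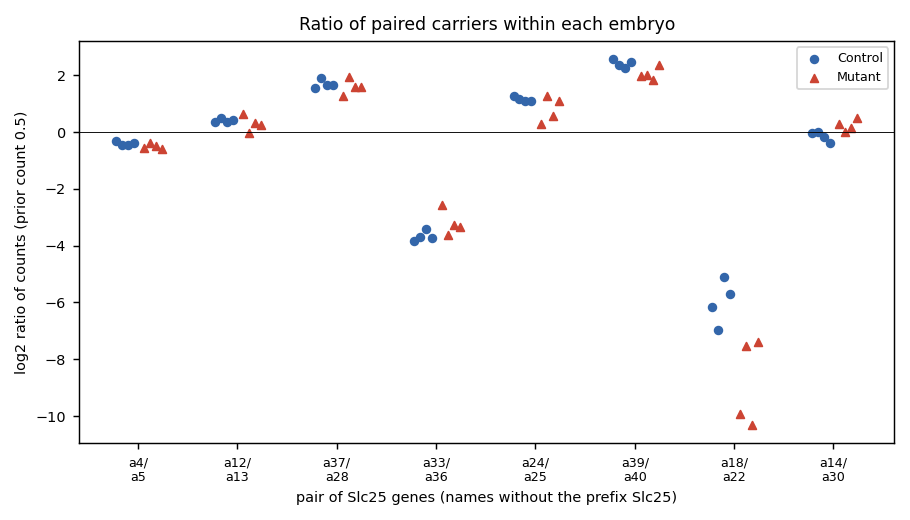
Log2 ratio of the counts of paired Slc25 carriers within each embryo, with circles for the 4 control and triangles for the 4 mutant embryos. Only for Slc25a18/Slc25a22 do the groups not overlap, and the SD of the mutants is above that of the controls in all 8 pairs.

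A single mutant often marked the edge of the range. K14J26, the embryo with the highest enamel gene level and the lowest proliferation gene level, had the highest value of all 8 embryos for 12 members and the lowest for 11, together 53.5% of the tested members beside 55.1% of all tested genes. Slc25a1, Slc25a33 and Slc25a44 were among its highest members, and Slc25a4, Slc25a13, Slc25a21 and Slc25a24 among its lowest. Without K14J26, 5 members were called higher and 2 lower, beside 1746 higher and 1349 lower of 16994 genes tested in that fit. By name, Slc25a40 was lost in that fit (adjusted p = 0.0658) and Slc25a45 was gained (adjusted p = 0.0481).

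Some carriers were scarce or not detected in these molars. Slc25a31, an ADP/ATP carrier typical of testis, had 13, 6, 20 and 95 counts in the controls and 11, 5, 9 and 15 counts in the mutants, with J7 apart from the rest (log2 fold change -1.77, SE 0.72, adjusted p = 0.114), and without J7 its log2 fold change was -0.75. Slc25a43 lay between 0.139 and 0.577 CPM and its groups overlapped. Slc25a34 had 1 to 6 counts and Slc25a41 at most 1, and neither was tested. Slc25a54 had 0 counts in all 8 embryos, which allows up to 3 counts, or 0.101 to 0.173 CPM before TMM scaling.

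Family proteins that go under other symbols included the uncoupling proteins, and 2 of 5 such genes rose (median log2 fold change 0.21), where 9.52% of all tested genes were higher. Ucp2 had 301, 309, 317 and 250 CPM in the controls and 775, 337, 509 and 478 CPM in the mutants, above the controls throughout and highest in K14J26 (log2 fold change 0.83, SE 0.21, adjusted p = 0.0323, edgeR). Ucp3 rose from 0.222, 0.783, 0.986 and 0.338 CPM to 3.27, 1.2, 2.39 and 1.94 CPM (log2 fold change 1.91, SE 0.46, adjusted p = 0.0275), while Ucp1, the uncoupling protein of brown fat, stayed under 1 CPM in every embryo and did not pass. Among 12 genes of heme and iron-sulfur cluster synthesis, 3 rose and none fell, beside the same 9.52%, and the median log2 fold change was 0.08. Alas1, which joins glycine to succinyl-CoA in the first step of heme synthesis, had 33.1, 33.3, 33.2 and 30.9 CPM against 51.2, 36.3, 49 and 42.1 CPM (log2 fold change 0.45, SE 0.11, adjusted p = 0.0255), with K14J28 the lowest mutant as for the glycine carrier Slc25a38. Uros and Cpox, later enzymes of the pathway, rose by 0.50 and 0.34 on the log2 scale (adjusted p = 0.0381 and 0.0488). Of 8 mitochondrial folate, serine and glycine genes, the folate enzyme Aldh1l2 was called, higher (log2 fold change 0.67, SE 0.17, adjusted p = 0.03), while 3 of the 8 had a positive change and their median was -0.11. None of 19 other mitochondrial membrane transporters, such as the pyruvate carrier and calcium uniporter subunits, and none of 10 regulators of mitochondrial biogenesis was called, with median log2 fold changes of 0.01 and 0.08. Of 9 genes of the import route that inserts carriers into the inner membrane, 1 was called, the receptor Tomm20, which fell by 0.32 on the log2 scale (SE 0.07, adjusted p = 0.0176), where 6.61% of all tested genes were lower, and the median of these 9 was -0.15.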

How the data were processed

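RNA from the pooled lower molars of each embryo was sequenced, and the authors deposited 1 table per embryo with unnormalized read counts on 43629 Ensembl genes. Reads were aligned with STAR to GRCm38 (p3 per the labels). The submitters' processing notes name featureCounts and the study's methods GenomicRanges for counting. The use of strand and of reads with several matches is not given in the sources used here, and it bears on genes that overlap or resemble another gene (BLAST 2.17.0, at least 97% identity over 100 bases).

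Symbols and exon lengths came from GENCODE M21, which holds 42548 of the identifiers. Genes were kept where 10 counts or more were reached in 2 or more embryos of a group, scaled by TMM and tested two-sided with edgeR 4.0.16 (quasi-likelihood, R 4.3.3, no covariates). Benjamini-Hochberg adjustment ran over all 17129 kept genes. Pair ratios used a prior count of 0.5. Marker scores used log2 CPM with a prior count of 2. The fits were tested on simulated data with 200 changed genes.

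The members, pairs, classes and gene lists were chosen with earlier results of these data known. Some items are not reported here. Values in every embryo are given for reported called members, the 5 with the highest level per length and all paired members. Other genes were named after their values were seen. The alternatives were other scaling (RLE, upper-quartile, library size), DESeq2 1.42.0, other count filters, marker score covariates and leaving out embryos. Nothing in the labels pairs the embryos, and p-values measure the spread between these embryos.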

Additional observations from a re-analysis of the deposited data

Results flagged for a closer look

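In 86 groups of 4 embryos (43 tested genes in 2 groups), 5 held an embryo that stood apart from the other 3 by Dixon's criterion at 95%, where chance flags about 1 in 20 groups, or 4.3 here. Slc25a4 was at 241 CPM in the mutant K14J26, below 269 to 274 CPM in the other mutants. Slc25a10 was at 79.7 CPM and Slc25a47 at 6.95 CPM in the mutant K14J30, each above the other mutants. Slc25a15 was at 26.3 CPM in the control J5, below the other controls, and Slc25a28 was at 16.4 CPM in the control J7, above them.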

How the results depend on the processing

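All 7 called genes kept their sign under every alternative run. The 5 higher genes at an adjusted p under 0.05 became 3 with library size scaling, which moved the median log2 fold change of all genes to -0.0934, and 0 with the muscle score, with the enamel score, and without J6 and J7 (the last chosen after seeing the data). The 2 lower genes became 4 with upper-quartile factors (1363 higher and 1448 lower over all genes, against 1631 and 1133 in the reported fit) and 0 in the same last 3 fits. With 1 embryo left out, the higher count lay between 1 and 6 and the lower count between 1 and 5. It was 1 and 1 without J3, J5, J7 or K14J29, 3 and 1 without J6, and 6 and 5 without K14J28. Calls over all genes came to 250 higher and 170 lower without K14J29 and to 2479 and 1843 without K14J28. They came to 373 and 287 without J3, 451 and 388 without J5, 854 and 553 without J6, and 300 and 236 without J7. By the study's criteria, the 2 higher genes became 1 with library size scaling and 1 with the enamel score. They became 3 with the muscle score and 3 without J6 and J7. The 2 lower genes became 0 with the filter of 50 counts in 4 embryos, 0 with either score and 0 without J6 and J7, and lay between 0 and 2 with 1 embryo left out (0 without J7). These 2 genes, Slc25a18 and Slc25a31, do not reach the filter of 50 counts, so its 0 was fixed in advance. Slc25a18 was also not tested without J6, without J7 or without both. DESeq2 called 6 higher and 3 lower, and 2244 and 1718 over all genes. The lower gene it added was Slc25a18 (adjusted p = 0.0457, DESeq2). That gene met the count filter only through controls J6 and J7, where it is higher, so the filter favoured this direction. RLE factors, upper-quartile factors and no filter each gave 4 higher genes, without Slc25a40. No paired analysis was possible because the labels give the embryos no numbers that the groups share. The 4 embryos a group and, for Slc25a18, Slc25a31, Slc25a43 and Slc25a48, low counts limit the precision.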
